A study of Mus musculus with 4 samples.

Results

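Chromatin accessibility at 51 splicing factor and hnRNP genes was examined in ATAC-seq peak lists from newborn mouse hearts. ATAC-seq uses a transposase to cut and tag open chromatin, so that regions dense in tagged fragments are called as peaks. The 51 genes were taken by name from 21887 protein-coding genes and comprised 12 SR and SR-like proteins, 14 hnRNP proteins, 11 SF3, U2AF and Prpf core factors, 10 U1 snRNP and Sm proteins, and 4 tissue regulators of splicing. A gene was said to have a peak in a list when a summit, the highest point of a peak, lay inside the gene or within 1 kb of either boundary (the gene window). The 51 genes lie on 18 chromosomes. A boundary peak had its summit within 1 kb of either boundary.

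The study compared 2 WT libraries with 2 libraries from mice that overexpressed miR-187, a microRNA, and each library had its own peak list. The mice were on a C57BL/6J background and the miR-187 transgene was knocked in at Rosa26 under the Tek (Tie2) promoter, which is active in endothelial and some blood cells, so other heart cells were not its intended site. The hearts were taken at postnatal day 0. The labels name the material only as heart, whereas the methods of the study describe endothelial cells captured with CD31 beads. The study describes its accessibility comparison as one of +/+ with homozygous (KI/KI) mice, while the labels give no zygosity and no number of hearts per library. Nothing in the labels says that the libraries of a group came from separate animals, so their spread may be technical.

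Splicing removes introns from nuclear RNA by means of the spliceosome. The U1 snRNP, which carries the ring of Sm proteins, recognizes the 5′ splice site, U2AF and the SF3 complexes of the U2 snRNP recognize the 3′ splice site and branch point, and the Prpf proteins act in the catalytic core. SR proteins bind exons and favour their inclusion, hnRNP proteins coat nuclear RNA and often oppose inclusion, and Rbfox, Mbnl, Qk and Ptbp proteins set tissue-specific exon choice, including exons of heart and vessel genes. Most of these factors are used by every cell, and their genes typically have GC-rich promoters.

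The promoters of some members show what sequence lay under recurrent peaks. Of the members with boundary peaks in 3 lists, Hnrnpa2b1, Srsf4, Srsf3 and Snrpe had a RefSeq promoter (GRCm38.p6) that peaks of both WT replicates and of miR-187 replicate 1 overlapped. The sequences are shown because peaks of these 3 lists overlapped them, among members taken by number of lists and then by lowest percentile. A region common to the 3 lists also occurred at Snrpd3, Snrpd2, Hnrnpa0, Hnrnpf and Sf3b4, whose sequences are not shown. Those shown are the bases before a transcription start that lie outside the annotated gene, 5′ to 3′ on the gene's strand. Capitals mark exact matches to 8 promoter motifs on either strand. Hnrnpa2b1 is shown from chr6:51470049-51470144 (minus strand), Srsf4 from chr4:131873387-131873529 (plus strand), Srsf3 from chr17:29032410-29032659 (plus strand) and Snrpe from chr1:133610281-133610530 (minus strand).
Hnrnpa2b1: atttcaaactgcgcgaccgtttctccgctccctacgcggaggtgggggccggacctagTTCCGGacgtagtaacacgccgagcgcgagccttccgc
Srsf4: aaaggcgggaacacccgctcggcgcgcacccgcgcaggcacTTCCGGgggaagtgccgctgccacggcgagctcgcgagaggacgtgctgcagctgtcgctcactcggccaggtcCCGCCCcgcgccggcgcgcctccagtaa
Srsf3: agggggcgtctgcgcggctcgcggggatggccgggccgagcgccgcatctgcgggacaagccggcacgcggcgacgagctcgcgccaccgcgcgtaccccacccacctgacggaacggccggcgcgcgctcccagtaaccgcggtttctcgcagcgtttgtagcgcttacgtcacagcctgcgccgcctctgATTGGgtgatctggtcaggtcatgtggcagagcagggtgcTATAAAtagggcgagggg
Snrpe: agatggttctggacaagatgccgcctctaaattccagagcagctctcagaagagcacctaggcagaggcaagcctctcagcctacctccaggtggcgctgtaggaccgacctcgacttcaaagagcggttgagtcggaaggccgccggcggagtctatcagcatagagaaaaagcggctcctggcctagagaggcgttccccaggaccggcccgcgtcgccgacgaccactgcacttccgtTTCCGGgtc
The capitals mark an ETS motif (CCGGAA, here as its reverse complement) in Hnrnpa2b1, Srsf4 and Snrpe. Srsf4 also held an SP/KLF motif (GGGCGG), also on the opposite strand. Srsf3 held an NF-Y motif (CCAAT, here as its reverse complement) and a TATA box (TATAAA) and no ETS match.

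Across the 46 members with entries in the RefSeq promoter table, 63 promoters were searched over the 250 bases before the start. A gene with several promoters thus counted more than once. The ETS motif was in 41.3% of member promoters (26 promoters of 21 genes), against 15.0% of 21263 promoters of protein-coding genes. SP/KLF was in 65.1% of member promoters and 42.6% of all, and NF-Y in 50.8% and 35.4%. Member promoters were also richer in GC, with a median of 60.4% against 55.6%, and the part of base composition in the motif shares was not tested. The NRF1 motif (GCATGCGC) was in 6.35% against 2.93%, the CRE (TGACGTCA) in 4.76% against 1.92% and the E-box (CACGTG) in 11.1% against 6.63%. TATAAA was in 9.52% against 11.6%, and the YY1 motif (AAGATGGC) in 1.59% against 1.5%. None of the motifs is contained in another, but neighbouring matches can share bases, as SP/KLF and ETS can in CCGCCCCGGAA. A match is a run of letters and does not show that a factor was bound.

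WT replicate 1 had 9452 peaks and WT replicate 2 had 12298, while the miR-187 replicates had 7496 and 1483. Depth was read from the background density that the peak values imply, since read totals were not used here. It was 1751, 5227, 2016 and 1032 reads per Mb in the same order. The longest list was thus the deepest and the shortest the shallowest. Of 12 endothelial marker genes, 3, 8, 4 and 2 had a peak. These shares of 25%, 66.7%, 33.3% and 16.7% stood against 29.8%, 38.5%, 26.1% and 5.05% of all protein-coding genes. Only in WT replicate 1 were the endothelial markers below all genes. Pecam1 (CD31) had a peak in 3 lists but not in miR-187 replicate 2, and Emcn and Egfl7 in none. Of 10 cardiomyocyte markers, 2, 1, 1 and 0 had one, Myh6, Myh7, Tnni3, Actc1 and Ttn in no list, and of 4 blood markers 1, 0, 0 and 0. Of 6 fibroblast and mural markers, 3, 4, 0 and 0 had a peak, with Col1a1, Col1a2 and Postn in both WT lists only and Pdgfrb and Rgs5 in none. Depth did not separate the groups, since miR-187 replicate 1 was deeper than WT replicate 1, and neither did the endothelial or cardiomyocyte markers. The 6 fibroblast and mural markers (50%, 66.7%, 0% and 0%) separated them, as did the member counts below. The shares of all protein-coding genes separated the groups in the same way. Any part of these few markers in the member counts was not tested. In bulk libraries, fewer cells with an open site and less opening per cell cannot be told apart.

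More members had a peak in each WT list than in either miR-187 list. WT replicate 1 had a peak at 27 members and WT replicate 2 at 39, whereas miR-187 replicate 1 had one at 24 and miR-187 replicate 2 at 1. The groups did not overlap, but most of the distance came from miR-187 replicate 2, and all protein-coding genes separated the same way (29.8% and 38.5% in WT, 26.1% and 5.05% in miR-187). WT averaged 33 ± 8.49 members and miR-187 12.5 ± 16.3 (SD, n = 2 each). The difference of -20.5 members had a 2-sided exact permutation p of 0.33, which is the smallest that 2 libraries against 2 allow, and is -9 without miR-187 replicate 2. Counted as peaks, the member windows held 28 and 48 in WT and 28 and 1 in miR-187, a difference of -23.5 (exact permutation p = 0.67) in which the groups tied at 28.

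In the same order of libraries, 52.9%, 76.5%, 47.1% and 1.96% of the members had a peak. The member share was above that of all genes in the first 3 lists. In miR-187 replicate 2 its 95% Wilson interval, 0.347% to 10.3%, held the share of all genes. Boundary peaks alone were present at 24, 32, 20 and 1 members, or 47.1%, 62.7%, 39.2% and 1.96%, against 21.0%, 29.9%, 19.4% and 3.07% of all genes. Their mean difference was -17.5 members (exact permutation p = 0.33). The median member was 12212 bp long and the median protein-coding gene 17169 bp, and the part of gene length in the shares was not tested.

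A further 145 splicing genes that are not among the 51 showed a like order of libraries. Peaks were at 66, 94, 59 and 16 of them (45.5%, 64.8%, 40.7% and 11%), against 29.8%, 38.5%, 26.1% and 5.05% of all genes. In miR-187 replicate 2 they thus stood above all genes (Wilson interval 6.91% to 17.2%), whereas the members, at 1.96%, stood below. The intervals of the members (0.347% to 10.3%) and of the other splicing genes overlapped there. The difference for the other splicing genes was -42.5 genes (exact permutation p = 0.33). The direction turned when each list was held to its 1483 strongest peaks, which left 13, 19, 20 and 16 genes and a difference of 2.

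**Figure D1:**
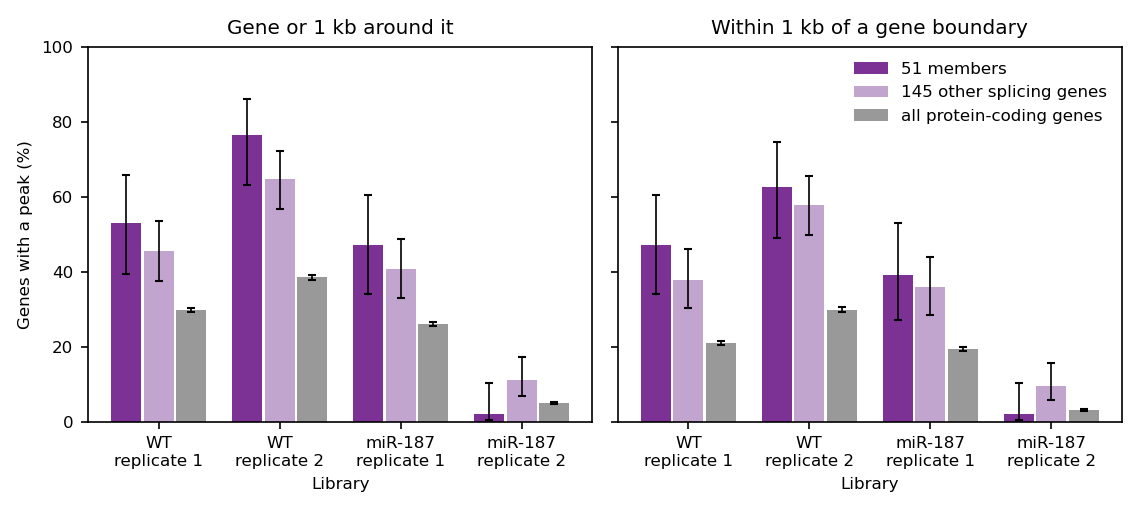
Percentage of genes with a peak in each library, in the gene window (left) and at gene boundaries (right), for the 51 members, 145 other splicing genes and all protein-coding genes, with 95% Wilson intervals that cover counting error only. In the left panel the members stand at 52.9%, 76.5%, 47.1% and 1.96%, above all genes in the first 3 libraries.

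Strength was ranked within each list by the −log10 q of a gene's strongest peak, so that 100 is the highest of all genes with a peak. The median member stood at percentile 30.0 for WT replicate 1, at 40.3 for WT replicate 2 and at 49.1 for miR-187 replicate 1. In these lists 10 of 27, 18 of 39 and 12 of 24 members ranked above the median gene, so members were low by rank in WT replicate 1 and near the middle in miR-187 replicate 1. With boundary peaks alone, ranked among all genes with one, the medians were 28.8, 67.3 and 49.3, so that the place of WT replicate 2 depended on the window. The single member in miR-187 replicate 2, Prpf19, ranked at 88.1. The difference in median percentile was 33.5 points, higher in miR-187 (exact permutation p = 0.33), and 14.0 without miR-187 replicate 2, whose median is that of 1 gene. With boundary peaks it was 21.1 points (exact permutation p = 0.67), and the groups overlapped.

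Summits rested on few reads at members and at other genes alike. The median number of reads at a member's summit was 8 and 16 in the WT replicates and 10 and 9 in the miR-187 replicates, and the lowest was 4. Over all genes with a peak the medians were 9, 15, 10 and 7 reads. The median fold enrichment over local background was 4.92, 4.81, 5.67 and 6.76, a difference of 1.35 (exact permutation p = 0.33), and 0.808 without miR-187 replicate 2. The median fold over all genes with a peak was 5.43, 5.27, 5.68 and 5.47, so that members were lower in WT replicate 1 and nearly equal in miR-187 replicate 1. In WT replicate 2 members were lower in the gene window but not at boundaries, where the medians were 5.35 for members and 5.26 for all genes.

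**Figure D2:**
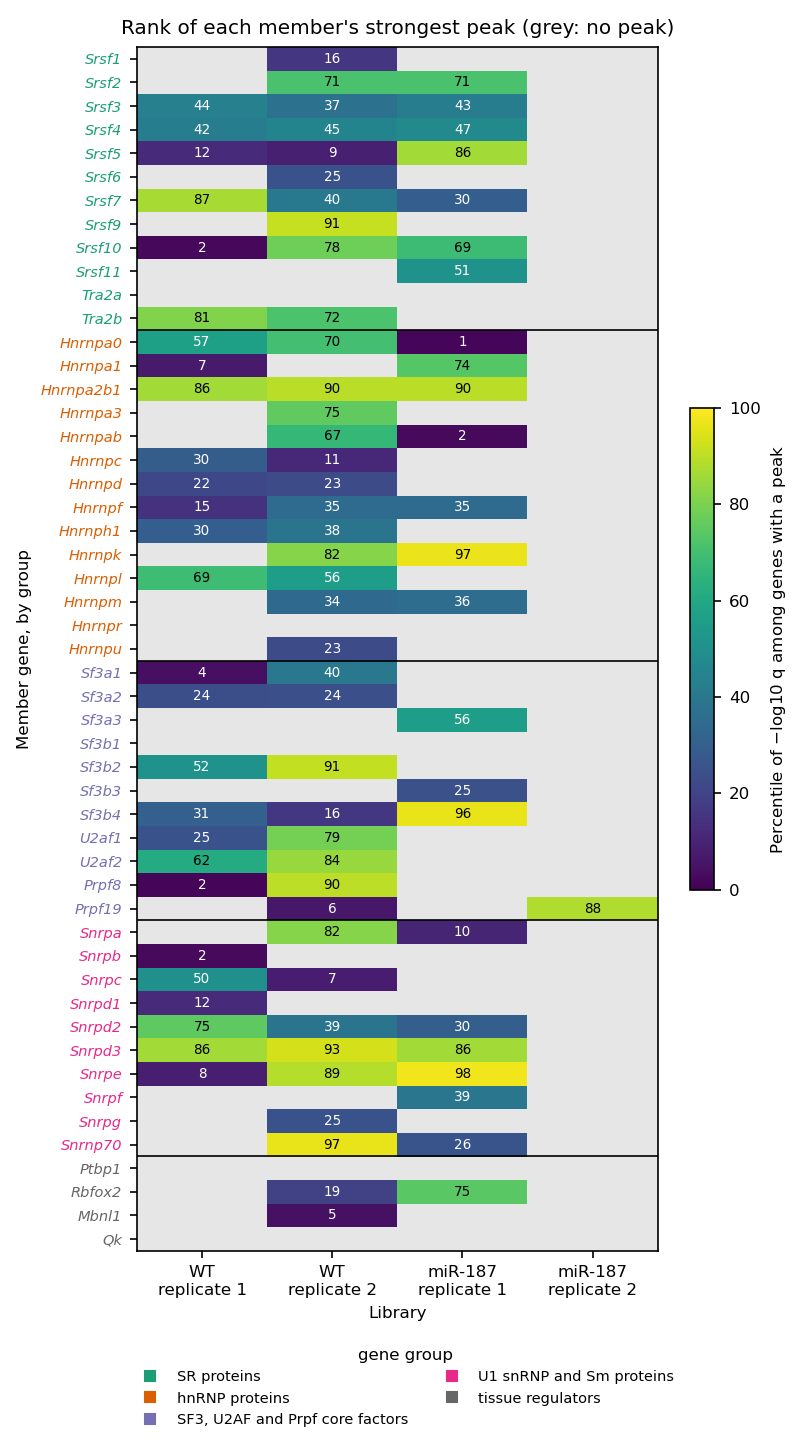
Percentile of the strongest peak of each of the 51 members (rows, by gene group) in each library (columns), where 100 is the highest −log10 q among all genes with a peak in that list and grey marks no peak. The first 3 columns are well filled, and miR-187 replicate 2 holds only Prpf19 at 88.1.

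No member had a peak in all 4 lists, as did only 492 of all genes (2.25%), so the member count is near the share of all genes. Both WT lists and miR-187 replicate 1 shared 12 members (23.5%, against 11.9% of all genes), and another 12 (23.5%, against 7.59%) were in both WT lists but no miR-187 list. WT replicate 2 and miR-187 replicate 1 alone shared 7 members, 13.7% against 6.02% of all genes. Peaks were found only in WT replicate 2 at 7 members (13.7%, against 9.01%), only in miR-187 replicate 1 at 4 (7.84%, against 2.95%) and only in WT replicate 1 at 2 (3.92%, against 4.83%). Only 5 members, 9.80% against 50.5% of all genes, had no peak in any list. Of the 24 members shared by the WT lists, 50% lacked a peak in both miR-187 libraries, against 33.9% of 4905 genes, and this share was not tested because genes are not replicates.

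SR proteins, the exon-binding activators, had a peak at 6 and 10 of 12 genes in the WT lists (50% and 83.3%, against 29.8% and 38.5% of all genes) and at 7 and 0 in the miR-187 lists (58.3% and 0%, against 26.1% and 5.05%). The groups overlapped, since miR-187 replicate 1 held more than WT replicate 1. Srsf3, Srsf4, Srsf5, Srsf7 and Srsf10 were in both WT lists and miR-187 replicate 1. Srsf4 held nearly the same place in all 3 lists, at percentiles 42.4, 45.1 and 47.3, and Srsf3 likewise at 43.5, 37.3 and 42.5. Srsf7, whose product also helps export mRNA, ranked at 86.7 in WT replicate 1, the highest member of that list, and lower at 40.3 in WT replicate 2 and, for a peak that did not overlap those, at 29.8 in miR-187 replicate 1. Tra2b, an SR-like activator of exons, was the single gene of the group in both WT lists only, at percentiles 81.1 and 71.6 and folds of 6.59 and 5.53. Srsf9 ranked at 91.2 in WT replicate 2 with a fold of 7.43 and had no other peak. Srsf11 was found only in miR-187 replicate 1, with 2 peaks and a percentile of 50.9.

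The replicates of WT could place an SR gene very differently. Srsf10, named here after its values were seen, stood at percentile 2.30 in the WT replicate 1 list, but at 78 in that of WT replicate 2 and 68.6 in that of miR-187 replicate 1. Its WT replicate 1 peak lay upstream and overlapped neither of the other peaks, so these ranks are of different regions. Srsf5, also chosen after its values were seen, stood at 12.1, 8.81 and 86.3. The peaks of WT replicate 1 and miR-187 replicate 1 overlapped downstream of the start, the peak of WT replicate 2 lay at the start, and the summits spanned 860 bp.

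The hnRNP genes had a peak at 8 and 12 of 14 genes in WT (57.1% and 85.7%, against 29.8% and 38.5% of all genes) and at 7 and 0 in miR-187 (50% and 0%, against 26.1% and 5.05%). WT replicate 1 and miR-187 replicate 1 differed by 1 gene, and the order of the libraries was that of all genes. Hnrnpa2b1, which packages nuclear RNA and represses exons with its relative Hnrnpa1, was high in all 3 lists in which it had a peak, at percentiles 86.3, 89.8 and 89.6 and folds of 6.47, 6.05 and 7.27. Its window also holds Cbx3, a heterochromatin protein gene with which it shares a promoter region, and the peak cannot be assigned to one of them. Hnrnpk, a poly(C)-binding protein, ranked at 81.9 in WT replicate 2 and 97.0 in miR-187 replicate 1 and had no peak in WT replicate 1. In miR-187 replicate 1 it had 19 reads at its summit, the most of any member in that list.

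Hnrnpc, Hnrnpd, Hnrnph1 and Hnrnpl had a peak with both WT libraries but with neither miR-187 library. Hnrnpl, a CA-repeat binding regulator, was at percentiles 68.9 and 56.1, for strongest peaks in different places. A weaker Hnrnpl peak of WT replicate 2, with a fold of 3.80, overlapped the peak of WT replicate 1. Hnrnpc, which binds U-rich tracts, was at 29.6 and 11.4, Hnrnpd, an AU-rich element binder, at 21.7 and 22.8 from peaks that did not overlap, and Hnrnph1, which binds G runs, at 30.0 and 38.5. Except for Hnrnpl these were weak peaks by rank in both lists. They were 4 of the 14 genes, where 7.59% of all genes had these lists. Another 3 of the 14 were in both WT lists and miR-187 replicate 1 (11.9% of all genes), 3 in WT replicate 2 and miR-187 replicate 1 (6.02%), 1 in WT replicate 1 and miR-187 replicate 1 (2.2%), and 2 in WT replicate 2 only (9.01%).

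The SF3, U2AF and Prpf core factors were in both WT lists only at 6 of 11 genes, against 7.59% of all genes. They had a peak at 7 and 8 genes in WT (63.6% and 72.7%, against 29.8% and 38.5% of all genes) and at 3 and 1 in miR-187 (27.3% and 9.09%, against 26.1% and 5.05%). In the miR-187 lists their shares were thus near those of all genes. These counts by gene group were not tested. In the SF3a complex, which joins the U2 snRNP, Sf3a1 (percentiles 3.97 and 39.9) and Sf3a2 (24.1 and 24.4, from peaks that did not overlap) had a peak in the WT lists only. Their partner Sf3a3 had a peak only in miR-187 replicate 1, at percentile 56.1.

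In the SF3b complex, which contacts the branch point, Sf3b2 was at percentiles 51.6 and 90.7 in the WT lists only (chr19:5295438-5295782 and chr19:5295407-5295721), and Sf3b3 only in miR-187 replicate 1 at 24.9. Sf3b4 had a peak in 3 lists, at 30.8, 16.3 and 96.5. Its fold was 8.67 in miR-187 replicate 1 against 4.74 and 4.22 in WT, although its window also holds the neighbouring gene Mtmr11. Sf3b1, the branch point subunit, had no peak in any list.

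Both subunits of U2AF, which reads the 3′ splice site, were likewise found in both WT libraries but not with miR-187. U2af1, the small subunit, was at percentiles 25.2 and 79.3, and U2af2, the large subunit, at 61.7 and 84.4 with 2 peaks in each list. Both ranked higher in the deeper WT list. Prpf8, the scaffold of the spliceosome's catalytic centre, had a fold of 3.62 from 4 reads in WT replicate 1 and 7.69 from 19 reads in WT replicate 2. Its percentiles of 1.51 and 89.8 were among the farthest apart of the members shared by the WT lists. Prpf19, a ubiquitin ligase of the active spliceosome, was the single member with a peak in miR-187 replicate 2, with a fold of 6.76 from 9 reads, and was weak in WT replicate 2, at percentile 6.48. The peaks, chr19:10895056-10895475 in WT replicate 2 and chr19:10895232-10895566 in miR-187 replicate 2, overlapped at the start of the gene, with summits 251 bp apart.

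The U1 snRNP and Sm genes had a peak at 6 and 7 of 10 genes in WT (60% and 70%, against 29.8% and 38.5% of all genes) and at 6 and 0 in miR-187 (60% and 0%, against 26.1% and 5.05%), so that WT replicate 1 and miR-187 replicate 1 did not differ in number. Each of the 10 genes had a peak in at least 1 list, against 49.5% of all genes. Snrpd3, an Sm ring protein, was high throughout, at percentiles 86.3, 93.5 and 86.1 and folds of 6.47, 6.75 and 6.78, in a window it shares with Gucd1. Snrpe, another ring protein, stood at only 8.47 in WT replicate 1, but at 88.7 in WT replicate 2 and at 97.7 with miR-187 replicate 1. The last was the highest percentile of any member in any list, with a fold of 9.24. Snrpd2, which was in the same 3 lists, went the other way and was highest in WT replicate 1. Snrpf, which also sits in the ring, had a peak only in miR-187 replicate 1, at percentile 39.3.

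Among the proteins of U1 itself, Snrpc, which steadies the contact with the 5′ splice site, was in both WT lists only, at percentiles 50.2 and 7.44. Its 2 peaks were in different places, within 1 kb of the 3′ end in WT replicate 1 and at the start in WT replicate 2. Snrnp70, which binds U1 RNA, ranked at 96.6 in WT replicate 2 (chr7:45395427-45396117), the highest member there, and at 25.9 in miR-187 replicate 1.

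The 4 tissue regulators had a peak at 0 and 2 genes in WT and at 1 and 0 in miR-187, none of them at a gene boundary. Against 29.8%, 38.5%, 26.1% and 5.05% of all genes, 4 genes are too few to set them apart. Rbfox2, a regulator of muscle and vascular exons, had 3 peaks in its gene body in WT replicate 2 and 3 in miR-187 replicate 1, with best percentiles of 19.2 and 74.6. Its gene spans 229445 bp, and only 1 region was shared by the 2 lists. Mbnl1, whose protein promotes adult splice forms in heart muscle, had 1 gene body peak in WT replicate 2 at percentile 4.65. Both genes were named after their values were seen. Ptbp1 and Qk had no peak in any list, nor did Tra2a and Hnrnpr.

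Most member peaks lay at transcription starts. Of 105 member peaks in the 4 lists, 86 had a summit within 1 kb of an annotated start, 54 of them within 250 bp. No such share is given here for all peaks, so these counts do not set the members apart. The median summit was 86 bp upstream (-86 bp) of the nearest start in the RefSeq promoter table, with 62 summits upstream and 24 downstream of it. Some upstream summits lay inside the annotated gene, as at Snrpd2 and U2af1 in WT replicate 2, so upstream does not always mean outside the gene. The medians were -145 and -71 bp for the WT replicates and -87 bp for miR-187 replicate 1, and the libraries overlapped widely. A further 9 peaks were in gene bodies, 1 was near a 3′ end, and 9 were at a boundary of a member without strand in the table.

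**Figure D3:**
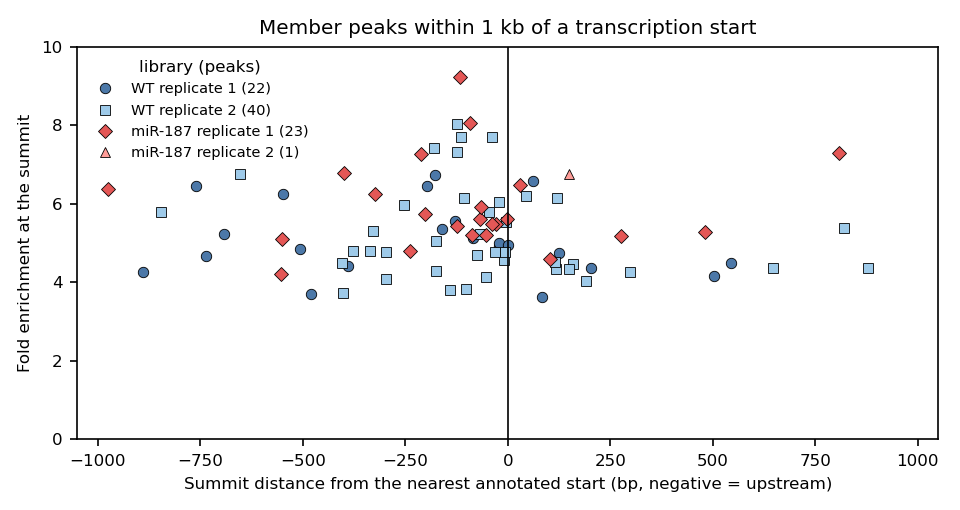
Fold enrichment (vertical axis) against the distance of the summit from the nearest annotated transcription start in bp (horizontal axis, negative upstream) for the 86 member peaks within 1 kb of a start, by library. The points gather just upstream of that start, with medians of -145, -71 and -87 bp in the WT replicates and miR-187 replicate 1. Some of the upstream points lie inside the annotated gene.

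Member peaks were often shared with a neighbouring gene. Another protein-coding gene's window also held the summit of 46.4% of the 28 member peaks of WT replicate 1, 37.5% of the 48 of WT replicate 2 and 50.0% of the 28 of miR-187 replicate 1. Among all peaks in gene windows the shares were 12.5%, 13% and 13.5%. Neighbours of this kind include Cbx3 beside Hnrnpa2b1, Gemin6 beside Srsf7, Mfsd11 beside Srsf2 and Gucd1 beside Snrpd3. At these members a peak in the window cannot be attributed to the splicing gene alone.

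Where 2 lists shared a member, their peaks mostly touched by at least 1 bp, but fewer covered each other well. In the WT lists 19 of 24 shared members had overlapping peaks, which is 70.4% of the 27 members in WT replicate 1 and 48.7% of the 39 in WT replicate 2. WT replicate 1 and miR-187 replicate 1 overlapped at 11 of 13 shared members, and WT replicate 2 and miR-187 replicate 1 at 17 of 19. With a reciprocal overlap of 50% the same pairs overlapped at 12 of 24, 7 of 13 and 7 of 19 shared members. Spearman's rho of the percentiles was 0.22 over the 24 members of the WT lists, -0.36 over the 13 and 0.03 over the 19, as a description across genes that share libraries and depth.

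Among the 12 members in both WT lists and miR-187 replicate 1, the median fold was 5.08 and 4.94 with WT and 6.04 with miR-187. The fold was above both WT values at 9 of the 12 (75%), against 38.8% of 3095 genes with a peak in those lists. At Srsf5, Srsf10 and Hnrnpf, which are among the 9, the strongest peaks compared did not all share a region. By percentile, however, miR-187 replicate 1 was above both at 4, below both at 4 and between them at 4, so the order of these genes within the list did not move one way. The exception below both WT lists by fold was Hnrnpa0. Because fold is scaled to each list's own background and to what was called there, the comparison holds for these lists only and was not tested.

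**Figure D4:**
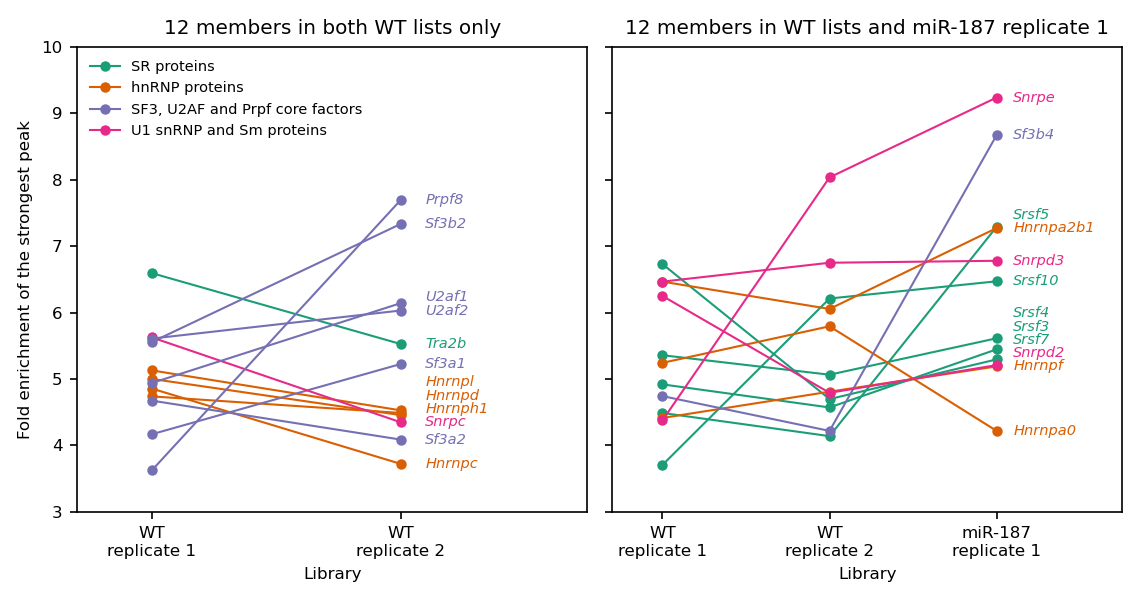
Fold enrichment of the strongest peak (vertical axis) for the 12 members in both WT lists only (left) and the 12 members in both WT lists and miR-187 replicate 1 (right), each line 1 gene coloured by group. On the left the WT replicates cross without a common direction, and on the right 9 of 12 genes are highest in miR-187 replicate 1, with Snrpe at 9.24. At some genes, such as Srsf5, Srsf10 and Hnrnpf on the right, a line joins peaks of different regions.

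The 12 members that were in both WT lists only were not the strongest of those lists. Their median percentiles were 29.8 and 48.0 in the WT replicates, while those of the 12 members also found in miR-187 replicate 1 were 43.0 and 42.7. Their summits held a median of 8.5 and 18 reads, against 10.5 and 16. The values of these 2 sets overlapped in both lists.

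The member counts changed with the peaks that were used. With peaks of −log10 q of at least 5, 5, 19, 10 and 0 members remained, and WT replicate 1 fell below miR-187 replicate 1. Of all protein-coding genes, 8.09%, 22.2%, 9.58% and 0.44% remained, in the same order of libraries. With the 1483 strongest peaks of each list, 4, 8, 6 and 1 members had a peak, a difference of -2.5 (exact permutation p = 0.667), beside 6.20%, 6.78%, 6.35% and 5.05% of all genes. Thinning to the background density of miR-187 replicate 2 was an alternative added after the data were seen. It was calculated from inferred read numbers, and no reads were drawn and no peaks called again. It left an expected 13.9 and 9.29 members in the WT replicates and 15.5 and 1 in the miR-187 replicates. Over all genes the expected shares were 19.3% and 9.22% for WT and 16.1% and 5.05% for miR-187. By number of members, the 3 deeper libraries were then closer to each other than to miR-187 replicate 2. By the shares of all genes, WT replicate 2 instead lay nearest to miR-187 replicate 2. Members not called in a deeper list cannot enter the expected number of members. The difference was -3.34 members (exact permutation p = 1) and 3.92, higher in miR-187, without miR-187 replicate 2. Of the 12 members in both WT lists only, 1 was left at −log10 q of at least 5 and 0 with equal lists.

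**Figure D5:**
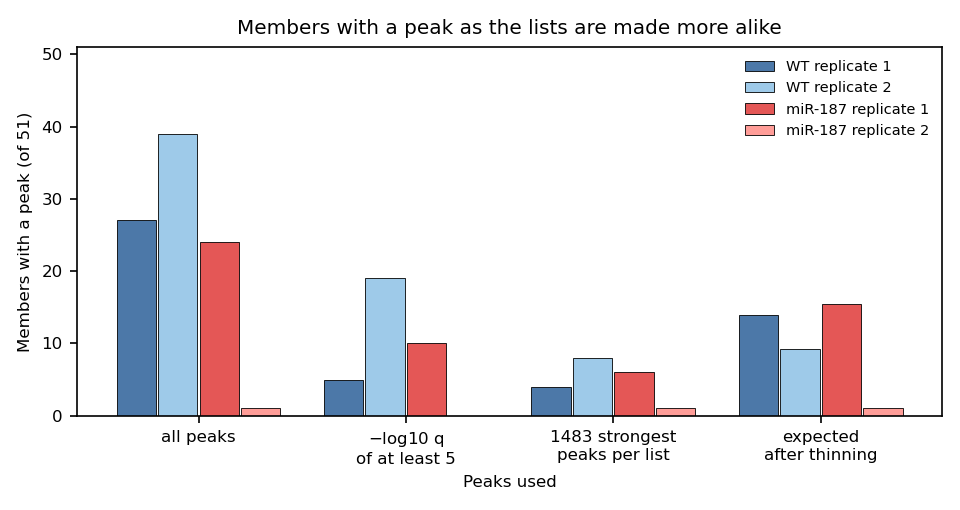
Number of the 51 members with a peak (vertical axis) in each library with all peaks, with −log10 q of at least 5, with the 1483 strongest peaks per list, and as an expected number after thinning to the shallowest library. Both WT bars exceed both miR-187 bars only in the first setting, and miR-187 replicate 2 stays at 0 or 1 throughout.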

How the data were processed

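Each library had 1 deposited peak list in the 10-column narrowPeak layout, called per library without pooling. The submitters' processing notes name Bowtie2 2.2.6, SAMtools 1.10, deepTools 3.3.2, MACS2 2.2.7.1 and HOMER 4.11 with build mm10, which is GRCm38. The deposited lists give for each peak a fold enrichment, a ratio over local background, and a −log10 p and −log10 q, all from the authors' peak caller. Other deposited columns are a score made from −log10 q and the summit offset. Reads, filters and controls are not given in the sources used here.

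The members and gene lists were chosen with earlier results of these data known. Groups came from sample titles. Genes came from the RefSeq table of assembly GRCm38.p6, and a gene took its peak of highest −log10 q on chromosomes 1 to 19, X and Y. The 6, 20, 6 and 0 peaks on other scaffolds (WT, then miR-187) were dropped. Percentiles were taken over all protein-coding genes with a peak in the list. A whole number of reads at each summit and its background were solved from fold and p (within 0.0005 in −log10 p, for 100% of peaks), and the lowest background over 200 bp gave the density. The solver and counts were tested on simulated data. Depth is known only through this inference. Wilson intervals are at 95%.

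Group means were compared by 2-sided exact permutation over the 6 assignments of libraries (smallest p 0.33), for 6 differences, which were not adjusted because none could reach 0.05. Members named with values were those in all 4 lists (none), in both WT lists only, in miR-187 but no WT list, the 3 of highest percentile per list, and those with sequences shown, and any other named member was chosen after its values were seen. Alternatives were a −log10 q of at least 5, equal numbers of peaks, a 3 kb window, boundary windows, a reciprocal overlap of 50%, a replicate block, and each library left out in turn. Thinning, an expectation from inferred read numbers without a new peak call, was added after the data were seen. Promoters came from RefSeq (46 of 51 members matched by symbol). Scripts ran on scipy 1.17.1, pandas 2.3.3, numpy 2.4.6, matplotlib 3.10.9 and Python 3.11.15.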

Additional observations from a re-analysis of the deposited data

How the results depend on the processing

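Of 74 alternative values, 64 had the same sign and call as before or lay within 1.5 times a count, 8 moved and 2 turned direction. With 2 libraries per group no difference can pass 0.05, so this says nothing of significance. The number of members in both WT lists only was 12 and became 1 at −log10 q of at least 5 and 0 with equal numbers of peaks, and it ranged from 12 to 24 when 1 library was left out (24 without miR-187 replicate 1, 19 without WT replicate 1). The number in both miR-187 lists only was 0 and ranged from 0 to 4, with 4 without miR-187 replicate 2. Overlapping members summed over the 6 pairs of libraries were 48, and 11 at −log10 q of at least 5, 7 with equal numbers of peaks and 27 with a reciprocal overlap of 50%. The other splicing genes turned from -42.5 to 2 with equal numbers of peaks, and the members from -20.5 to 3.92 when thinned and without miR-187 replicate 2. The fewer peaks or reads kept lower these counts by construction, and other causes were not tested. Leaving out 1 library gave differences of -32 to -9 members. At −log10 q of at least 5 the median percentile and fold could not be computed, since miR-187 replicate 2 had no member left. Same-numbered libraries did not deviate together (correlation -0.078 over genes) and the labels pair nothing. With a replicate block the differences were the same, -20.5 members in the gene window, with an exact sign-flip p of 0.5, the smallest possible. Member summits held as few as 4 reads, and depth is known only by inference.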
